A study of Mus musculus with 2 samples.

Results

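A set of 9 genes of the DNA damage response was followed through the cells of the embryonic mouse heart: the kinases Atm, Atr, Chek1 and Chek2, the recombination proteins Brca1 and Brca2, the Fanconi anemia protein Fancd2, the helicase Blm and the nuclease Exo1. They were chosen by name, and all 9 were found among the 32285 genes counted. Single-cell RNA was counted in hearts of embryos at E10.5 (mid-gestation), with 4 hearts pooled into 1 library for each of 2 genotypes. The library labelled wildtype came from BubR1+/+ ; Nkx2.5-cre (het) embryos, and the library labelled knockout from BubR1fl/fl ; Nkx2.5-cre (het) embryos. Both therefore carry 1 copy of the Cre recombinase driven by Nkx2.5, a gene of the heart-forming lineage, and in the knockout embryos the floxed allele recombines in cells of that lineage. BubR1 is the protein of Bub1b, a kinase-like component of the spindle checkpoint. Embryos were kept on ice for 3 hours before dissection. With 1 library per genotype there is no replicate, so no difference between the libraries could be tested. All intervals below are 95% intervals that cover counting error only, and a difference of genotype cannot be told apart from a difference between the pools of embryos or between the preparations.

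Atm and Atr are large kinases that sense broken DNA and stalled replication forks, and they activate Chek2 and Chek1, which hold the cell cycle until the damage is dealt with. Broken or collapsed forks are repaired by homologous recombination: nucleases such as Exo1 resect the ends, Brca1 favours that resection, Brca2 acts in the strand exchange that follows, Blm unwinds and dissolves recombination intermediates, and Fancd2 is attached to ubiquitin at crosslinked or stalled DNA. Embryonic heart cells divide quickly, and many genes of this group are transcribed mainly while a cell replicates its DNA.

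On the genome build GRCm38 (mm10), with GENCODE vM21 gene models, Brca1 lies at chr11:101488764-101551955 on the minus strand, Brca2 at chr5:150522630-150570329 on the plus strand, Blm at chr7:80454733-80535119 on the minus strand and Exo1 at chr1:175880581-175913489 on the plus strand. Chek1 lies at chr9:36708482-36727065 on the minus strand, Chek2 at chr5:110839979-110874145 on the plus strand, Atm at chr9:53439149-53536740 on the minus strand and Atr at chr9:95857597-95951781 on the plus strand. Fancd2 lies at chr6:113531682-113597017 on the plus strand and overlaps Fancd2os on the other strand. Of the 9, 4 start close to a coding gene that runs the other way: Brca1 starts 194 bases from Nbr1, Chek2 202 bases from Hscb, Atm 307 bases from Npat and Fancd2 30 bases from Emc3. Promoter sequences of RefSeq (build GRCm38.p6) were matched by symbol for 7 of the 9; Exo1 and Fancd2 had no entry. The bases just before the start of Brca1 (chr11:101551956-101552148, minus strand), Brca2 (chr5:150522371-150522620, plus strand) and Atr (chr9:95857347-95857596, plus strand) are shown because Brca1 had the largest median difference of the 9 between cells with S phase transcripts alone and cells with neither list (given below), Atr the smallest, and Brca2 has one of the motifs searched. They run 5′ to 3′ along the gene up to its start, and capitals mark the CCAAT box or an E2F motif on either strand.
Brca1: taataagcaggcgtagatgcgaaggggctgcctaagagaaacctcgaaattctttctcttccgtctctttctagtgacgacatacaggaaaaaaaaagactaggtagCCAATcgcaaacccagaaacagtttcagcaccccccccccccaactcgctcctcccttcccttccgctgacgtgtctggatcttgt
Brca2: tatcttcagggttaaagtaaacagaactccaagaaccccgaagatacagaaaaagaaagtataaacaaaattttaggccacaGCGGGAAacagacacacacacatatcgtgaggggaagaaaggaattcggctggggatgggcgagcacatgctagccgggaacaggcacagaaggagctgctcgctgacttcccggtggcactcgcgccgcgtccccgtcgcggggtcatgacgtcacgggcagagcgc
Atr: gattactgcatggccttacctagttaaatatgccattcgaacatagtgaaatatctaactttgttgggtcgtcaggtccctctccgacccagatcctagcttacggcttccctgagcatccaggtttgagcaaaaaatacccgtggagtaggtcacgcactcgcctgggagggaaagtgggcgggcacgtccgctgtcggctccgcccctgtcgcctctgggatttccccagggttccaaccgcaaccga

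In the 250 bases before the start, an E2F motif (TTCCCGC or TTGGCGC, on either strand) was found in 2 of the 7 promoters, Brca2 and Chek2, against 5.62% of 32851 RefSeq promoters. The letters CCAAT, on either strand, were found in 4 of the 7, Brca1, Blm, Chek2 and Atm, against 33.8% of all promoters. The CHR letters TTTGAA, on either strand, were in 0 of the 7 and in 16.0% of all promoters. The Atr stretch printed above holds none of these letters. These are matches of letters in a window and not measured binding.

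After barcodes with under 3000 UMIs (unique molecular identifiers, 1 per captured transcript), under 500 genes or over 20% mitochondrial UMIs were left out, 7440 cells with a median of 9504.5 UMIs stayed in the wildtype library and 5966 cells with a median of 17042.5 UMIs in the knockout library. The minimum of 500 genes left out 3642 of 11123 wildtype barcodes with at least 3000 UMIs and 15 of 6060 knockout barcodes. The part of this in the comparisons was not tested. The libraries shared 8 cell barcodes. Cells were placed in a class by 10 markers per class, drawn at 3000 UMIs per cell: 821 and 693 cardiomyocytes in the wildtype and knockout libraries, 1273 and 648 endothelial cells, 1326 and 397 mesenchymal cells, 810 and 1759 epicardial cells, 274 and 59 macrophages, and 444 and 1047 erythroid cells, with 2480 and 1229 cells in no class. All 10 markers of its own list had UMIs in each class of each library, and between 10 (knockout macrophages) and 410 (wildtype mesenchymal cells) cells stood at the minimum of the gate. Among erythroid cells, 258 of 444 wildtype and 179 of 1047 knockout cells stood at that minimum. The median erythroid cell had 3 of its own markers in the wildtype and 5 in the knockout library. The median cell of each class had 3 to 8 of its own markers and 0 to 2 of any other main list. The 2 came from mesenchymal markers in epicardial cells, whose summed level was 2909 CPM (UMI counts scaled to the same total for each class) in the wildtype library and 898 CPM in the knockout library.

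The libraries stand apart in ways that reach every class, and these values belong beside all comparisons below. The adult globin Hbb-bs was at 15404 CPM in wildtype and 104 CPM in knockout cardiomyocytes, and the embryonic globin Hbb-bh1 at 226 and 939 CPM. Hba-a1, another adult globin, was at 12743 and 1040 CPM in these cells. The other embryonic globins did not go with Hbb-bh1 there: Hbb-y was at 33224 and 6252 CPM and Hba-x at 4917 and 3921 CPM. Hemoglobin made up 8.49% of the summed UMIs of wildtype and 1.31% of those of knockout cardiomyocytes, but 0.292% and 0.0957% of the median cell. In erythroid cells Hba-x did go with Hbb-bh1: they were at 71966 and 137024 CPM and at 4296 and 37833 CPM. Hbb-y was lower there too, at 370457 and 222092 CPM. Hmga2, a chromatin protein of early embryonic tissue, was at 44.7 and 213 CPM in cardiomyocytes and at 165 and 706 CPM in epicardial cells. Lin28b was at 20.2 and 35.5 CPM in cardiomyocytes and at 11.6 and 35.3 CPM in epicardial cells. The part of these differences in the results was not tested. Hemoglobin made up 82.1% of the UMIs of the median erythroid cell in the wildtype library and 48.1% in the knockout library.

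Bub1b itself was at 53.6 CPM in cardiomyocytes of the wildtype library and 31.6 CPM in those of the knockout library (log2 ratio -0.76, interval -0.94 to -0.59). In macrophages it was at 80.2 and 43.8 CPM (-0.87, -1.30 to -0.46). It was higher in the library labelled knockout in endothelial cells (25.4 and 33.6 CPM), epicardial cells (23.9 and 44.7 CPM) and erythroid cells (5.17 and 34.1 CPM), and its interval held 0 in mesenchymal cells (47.4 and 50.5 CPM). Which exons the floxed allele removes is not stated in these sources, and counts from the 3′ end may lie outside them, so these values do not settle the labels. With both libraries set to the same mix of cell cycle positions, as described for the members below, the log2 ratio of Bub1b was -0.96 in cardiomyocytes, -0.26 in endothelial cells, -0.44 in mesenchymal cells and -0.25 in epicardial cells. It was thus lower in the library labelled knockout in all 4 non-blood classes on that reading. It was at -1.11 in macrophages and at 0.75 in erythroid cells. This was not particular to Bub1b: Mki67, a gene of dividing cells, was at -0.69, -0.59, -0.62 and -0.20 in the same 4 classes in that order. Mki67 was at -0.89 in macrophages and -0.12 in erythroid cells.

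Summed, the 9 genes took up more of the RNA in the knockout library in each of the 6 classes. The difference was smallest in cardiomyocytes, at 187 CPM (interval 180 to 195) in the wildtype and 215 CPM (208 to 223) in the knockout library, a log2 ratio of 0.20 (0.12 to 0.28). In endothelial cells the sum was 185 and 250 CPM (0.43, 0.34 to 0.52), and in mesenchymal cells 234 and 325 CPM (0.47, 0.39 to 0.56). Epicardial cells had the largest difference of the 4 non-blood classes, with 184 and 326 CPM (0.83, 0.75 to 0.91). Macrophages had 239 and 346 CPM (0.53, 0.36 to 0.71). Erythroid cells went from the lowest sum of the wildtype library, 36.6 CPM, to 243 CPM in the knockout library (2.73, 2.51 to 2.95), and there the median gene of all also had a log2 ratio of 1.47, which leaves 1.26 relative to it. In the other classes the median gene was between -0.08 and 0.11. In the wildtype library the order of the classes was macrophage (221 to 258 CPM) and mesenchymal (226 to 243), whose intervals overlap, then cardiomyocyte, endothelial and epicardial, whose intervals also overlap, then erythroid. In the knockout library macrophage (316 to 379), epicardial (320 to 332) and mesenchymal (310 to 340) overlapped at the top, followed by endothelial (239 to 260) and erythroid (236 to 249), which overlap, and then cardiomyocyte. Fewer expressing cells and less RNA per cell cannot be told apart in these sums.

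Read gene by gene, a member was counted when it differed by at least 1.5-fold between the libraries, and all 9 reached the minimum of 20 UMIs in every class. In cardiomyocytes 0 of the 9 passed this fold in either direction, where 12.3% of 14414 genes were higher and 10.1% lower in the knockout library. In endothelial cells 3 were higher (Chek1, Brca1, Exo1) and 0 lower, against 6.66% and 17.1% of all genes. In mesenchymal cells 5 were higher (Chek1, Brca1, Fancd2, Blm, Exo1) and 0 lower, against 9.0% and 21.4%. Epicardial cells had 7 higher, all but Atm and Atr, and 0 lower, against 14.0% and 21.0%. In macrophages 4 were higher (Atr, Chek1, Blm, Exo1) and 1 lower (Chek2), against 18.0% and 19.6%. In erythroid cells 9 were higher and 0 lower, but so were 75.7% of all genes, with 7.80% lower. The median of the 9 log2 ratios was 0.28 in cardiomyocytes (0.11 over all genes), 0.37 in endothelial cells (-0.08), 0.64 in mesenchymal cells (-0.06), 0.96 in epicardial cells (-0.04), 0.56 in macrophages (-0.01) and 2.74 in erythroid cells (1.47).

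**Figure D1:**
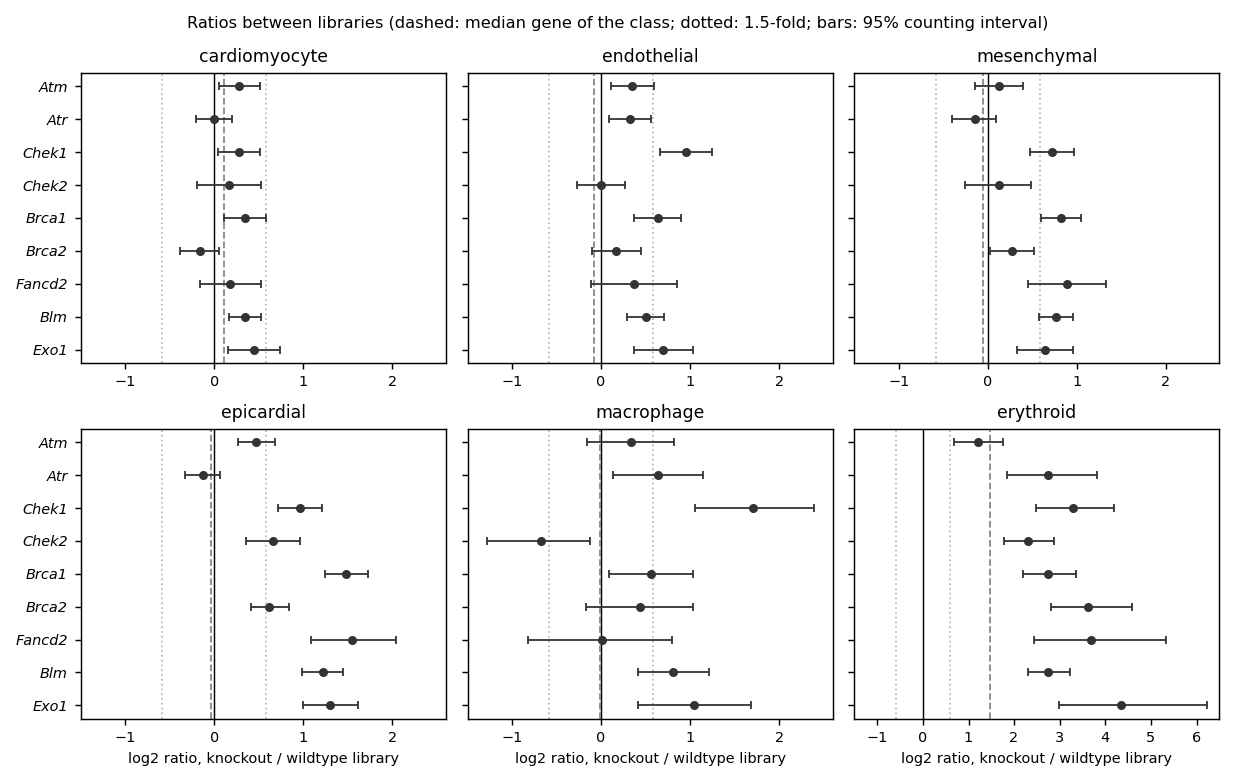
Log2 ratio of each gene between the library labelled knockout and the library labelled wildtype, one panel per cell class (x axis, log2 units; the erythroid panel has a wider axis). Points are ratios, bars 95% counting intervals, the dashed line the median gene of the class and the dotted lines 1.5-fold; cardiomyocyte points all lie inside the dotted lines, and epicardial points lie between -0.13 for Atr and 1.55 for Fancd2.

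The damage-sensing kinases stayed under 1.5-fold in each of the 4 non-blood classes. Atm was at 21.4 CPM in wildtype and 26.0 CPM in knockout cardiomyocytes, a log2 ratio of 0.28 (0.05 to 0.51), and at 29.8 and 41.4 CPM in epicardial cells (0.47, 0.27 to 0.68). It was at 26.2 and 33.3 CPM in endothelial cells, 27.7 and 30.2 CPM in mesenchymal cells and 33.5 and 42.4 CPM in macrophages, and its intervals held 0 in the last 2 of these. Atr, which responds to single-stranded DNA at forks, was at 30.1 CPM in cardiomyocytes of both libraries (0.00, -0.20 to 0.20). It was slightly lower in the knockout library in mesenchymal cells (39.6 and 35.6 CPM) and epicardial cells (33.8 and 30.8 CPM), with intervals that hold 0, and higher in endothelial cells (28.1 and 35.1 CPM; 0.32, 0.09 to 0.56) and macrophages (28.2 and 43.8 CPM; 0.64, 0.13 to 1.14). Both kinases were further apart in erythroid cells, Atm at 7.03 and 16.1 CPM and Atr at 2.07 and 13.8 CPM. There the ratio of Atm, 1.20, was under that of the median gene, 1.47.

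The effector kinases gave different values. Chek1, the target of Atr, was at 20.2 CPM in wildtype and 24.5 CPM in knockout cardiomyocytes (0.28, 0.04 to 0.51). It was at 14.4 and 27.9 CPM in endothelial cells (0.95, 0.66 to 1.25), at 25.5 and 42.0 CPM in mesenchymal cells (0.72, 0.47 to 0.97) and at 20.2 and 39.2 CPM in epicardial cells (0.96, 0.72 to 1.21). In macrophages it was at 11.4 and 37.4 CPM (1.71, 1.05 to 2.39), from 32 and 52 UMIs. Chek1 was thus higher in the knockout library in all 6 classes with intervals above 0, erythroid cells included (2.69 and 26.1 CPM). Chek2, the target of Atm, was at 9.14 and 10.3 CPM in cardiomyocytes, 23.6 and 23.5 CPM in endothelial cells and 15.4 and 16.6 CPM in mesenchymal cells, and each of these intervals held 0. It was higher in epicardial cells (13.8 and 21.7 CPM; 0.66, 0.36 to 0.96) and erythroid cells (6.20 and 30.5 CPM), and lower in macrophages (39.2 and 24.4 CPM; -0.68, -1.28 to -0.12), the one interval below 0 among the 54 pairs of gene and class.

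Brca1 and Brca2, which act at successive steps of recombination, differed from each other in the size of their ratios. Brca1 was at 20.4 and 25.8 CPM in cardiomyocytes (0.34, 0.11 to 0.58), and at 20.1 and 31.2 CPM in endothelial cells (0.64, 0.37 to 0.90). It was at 29.6 and 52.5 CPM in mesenchymal cells (0.82, 0.60 to 1.05) and at 19.3 and 53.8 CPM in epicardial cells (1.48, 1.24 to 1.73). Macrophages had 33.1 and 48.9 CPM and erythroid cells 5.58 and 37.4 CPM, so Brca1 was higher in the knockout library in all 6 classes. With the highest doublet scores removed, however, its cardiomyocyte ratio was 0.04. Brca2 was at 27.7 CPM in wildtype and 24.7 CPM in knockout cardiomyocytes, the lowest ratio of the 9 in that class (-0.16, -0.38 to 0.05). It was at 21.3 and 24.0 CPM in endothelial cells, 29.9 and 36.2 CPM in mesenchymal cells (0.27, 0.02 to 0.52) and 27.1 and 41.8 CPM in epicardial cells (0.62, 0.41 to 0.84). Macrophages held 21.7 and 29.5 CPM, an interval with 0, and erythroid cells 2.48 and 30.7 CPM.

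Fancd2 had the fewest UMIs of the 9 in all kept cells of each library (518 and 1540), so its intervals are wide. Its log2 ratio was 0.18 in cardiomyocytes (-0.16 to 0.52, from 130 and 176 UMIs), 0.37 in endothelial cells (6.72 and 8.67 CPM) and 0.01 in macrophages (42 and 21 UMIs), with intervals that hold 0. In mesenchymal cells it was at 7.80 and 14.5 CPM (0.89, 0.45 to 1.33), and in epicardial cells at 5.27 and 15.4 CPM (1.55, 1.09 to 2.04), the highest ratio of the 9 there. In erythroid cells 5 and 295 UMIs gave 1.03 and 13.3 CPM.

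Blm, the helicase mutated in Bloom syndrome, and Exo1, the 5′ to 3′ exonuclease, were higher in the knockout library in all 6 classes with intervals above 0. Blm was at 34.6 and 44.0 CPM in cardiomyocytes (0.35, 0.17 to 0.53), 32.2 and 45.6 CPM in endothelial cells (0.50, 0.29 to 0.71), and 41.8 and 70.9 CPM in mesenchymal cells (0.76, 0.57 to 0.95). It was at 22.1 and 51.3 CPM in epicardial cells (1.22, 0.99 to 1.45), 41.3 and 72.6 CPM in macrophages and 8.68 and 58.1 CPM in erythroid cells. Its cardiomyocyte ratio turned to -0.10 when each cell was thinned to 3000 UMIs, and that of Atm to -0.03. Exo1 was at 13.3 and 18.1 CPM in cardiomyocytes (0.45, 0.16 to 0.74), the highest ratio of the 9 in that class, and at 12.5 and 20.3 CPM in endothelial cells (0.70, 0.37 to 1.03). It was at 16.7 and 26.1 CPM in mesenchymal cells, 12.5 and 30.7 CPM in epicardial cells (1.30, 1.00 to 1.62) and 15.7 and 32.3 CPM in macrophages. In erythroid cells 4 and 373 UMIs gave 0.827 and 16.8 CPM.

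**Figure D2:**
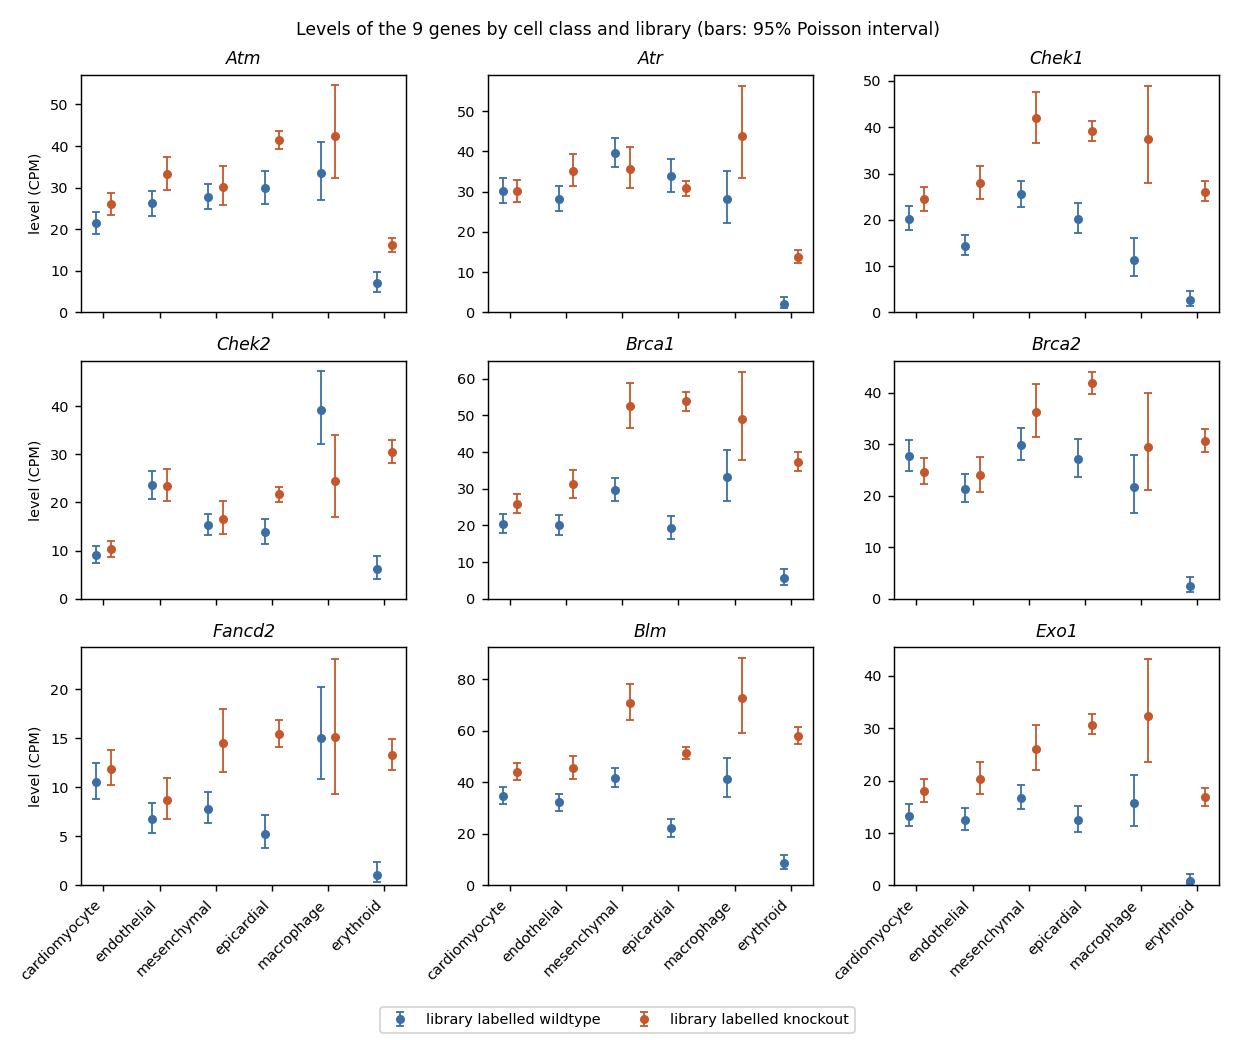
Level of each of the 9 genes (y axis, CPM of the UMIs of the class) in 6 cell classes, with the library labelled wildtype in blue and the library labelled knockout in orange; bars are 95% Poisson intervals. Atr sits at 30.1 CPM in cardiomyocytes of both libraries, whereas Brca1 in epicardial cells sits at 19.3 and 53.8 CPM.

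Across the 12 sums of class and library, the 10 genes whose level followed that of the 9 genes summed most closely were Tipin, Dnajc9, Srrt, Cebpz, Hpf1, Chaf1a, Trmt6, Bms1, Polr1b and Mcm7, with Pearson's r from 0.991 to 0.986 on the scale log2(CPM + 1) among 12283 genes. These 12 points come from 2 libraries, and the 2 erythroid points are far from the rest. Without those 2 points, the lowest r between any 2 of the 9 genes was -0.208, for Chek1 and Chek2, over 10 points. The highest was 0.945, for Brca1 and Exo1. For the 10 genes named above, r was not computed without the erythroid points.

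The 9 genes were next set against the position of each cell in the cell cycle. Each cell was read for 28 S phase genes and 44 G2/M genes, none of them a member, among 3000 UMIs drawn from it. At least 5 UMIs of the S list and 10 of the G2/M list sorted cells into neither, S only, S and G2/M, or G2/M only. Both minimums were set after the data were seen, and they cut a range: among the 4 non-blood classes, 514 of 4230 wildtype and 699 of 3497 knockout cells lay at the edge of the S list, and 145 and 227 at that of the G2/M list. Brca1 and Exo1 had the largest median differences between S only and neither. Summed over the 4 non-blood classes, Brca1 was at 2.85 CPM in wildtype cells with neither list, 39.5 CPM with S only, 68.8 CPM with both and 20.3 CPM with G2/M only. In the knockout library it was at 9.0, 47.9, 63.9 and 34.8 CPM in the same order. Exo1 was at 2.48, 25.8, 38.9 and 12.4 CPM in the wildtype and at 5.20, 29.0, 38.1 and 19.2 CPM in the knockout library.

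Blm, Brca2 and Chek1 were also lowest in cells with neither list and highest in cells with both, with smaller differences. Blm was at 11.3, 43.1, 78.1 and 43.3 CPM in wildtype cells with neither, S only, both and G2/M only. Brca2 was at 11.4, 35.4, 57.1 and 31.0 CPM, and Chek1 at 11.4, 33.4, 36.6 and 19.4 CPM. Fancd2 and Chek2 were higher with G2/M only than with S only. Fancd2 was at 1.06, 3.89, 23.4 and 12.4 CPM in the wildtype library and at 2.12, 5.37, 21.0 and 16.8 CPM in the knockout library, so cells with S transcripts alone stayed well under those with G2/M transcripts in both. Chek2 was at 8.19, 13.8, 31.3 and 19.7 CPM in the wildtype library and at 8.38, 13.4, 23.6 and 23.2 CPM in the knockout library.

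The sensing kinases followed the positions least. Atm was at 23.2, 38.3, 35.4 and 17.2 CPM in wildtype cells and at 25.7, 50.7, 40.1 and 23.7 CPM in knockout cells, with its highest level in S only. Atr was at 28.8, 36.0, 38.7 and 35.9 CPM in wildtype cells and at 24.8, 29.9, 34.6 and 33.4 CPM in knockout cells. Read as 8 values (4 classes in 2 libraries), the median log2 difference between S only and neither was 3.17 for Brca1, 2.77 for Exo1, 1.82 for Blm, 1.54 for Brca2, 1.48 for Fancd2, 1.44 for Chek1, 0.85 for Chek2, 0.78 for Atm and 0.32 for Atr. Its interval was above 0 in 8 of 8 for 6 of the genes, in 4 of 8 for Chek2, in 3 of 8 for Fancd2 and in 1 of 8 for Atr. Between cells with both lists and cells with neither, the largest median was that of Fancd2, at 3.87, above Brca1 at 3.29 and Exo1 at 3.22. The cells were sorted by transcripts of the same RNA that gave the levels, so the differences are a description of how transcripts occur together.

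**Figure D3:**
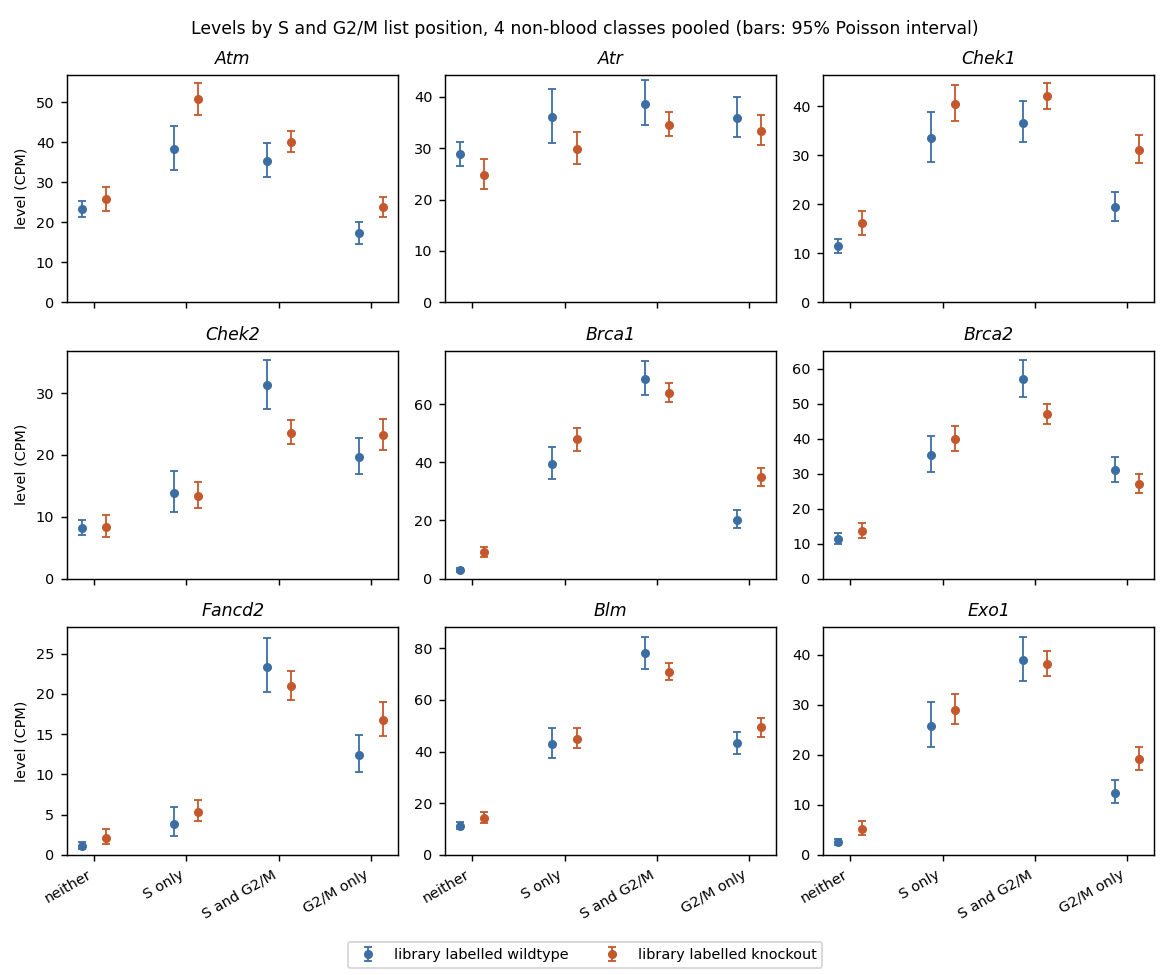
Level of each gene (y axis, CPM) in cells sorted by S list and G2/M list UMIs (x axis), summed over cardiomyocytes, endothelial, mesenchymal and epicardial cells; the library labelled wildtype is blue and the library labelled knockout orange, and bars are 95% Poisson intervals. Brca1 spans 2.85 to 68.8 CPM over the positions of the wildtype library, whereas Atr spans 28.8 to 38.7 CPM. The classes make up unlike shares of the wildtype and knockout libraries.

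The libraries differed in how many cells held each position. Cells with neither list made up 45.2% of wildtype and 38.2% of knockout cardiomyocytes, 63.9% and 31.0% of endothelial cells, 54.7% and 23.7% of mesenchymal cells, and 69.3% and 14.4% of epicardial cells. Cells with both lists made up 14.4% and 22.1% of cardiomyocytes, 14.8% and 27.5% of endothelial cells, 16.3% and 33.0% of mesenchymal cells and 8.77% and 41.6% of epicardial cells. Both libraries were read at 3000 UMIs per cell for this, so the deeper knockout cells had no more UMIs drawn. With both libraries set to the same mix of the 4 positions, the log2 ratio of the 9 genes summed was 0.03 in cardiomyocytes (0.20 without), 0.05 in endothelial cells (0.43), 0.11 in mesenchymal cells (0.47), 0.11 in epicardial cells (0.83) and 0.18 in macrophages (0.53). In erythroid cells it was 1.10 (2.73 without). The wildtype library had 0 erythroid cells in S only, so that position, with 18.3% of knockout erythroid cells, was left out. Hemoglobin took 82.1% and 48.1% of the median erythroid cell, so the UMIs drawn left fewer for the lists in the wildtype library. The positions of this class are therefore not alike between the libraries.

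**Figure D4:**
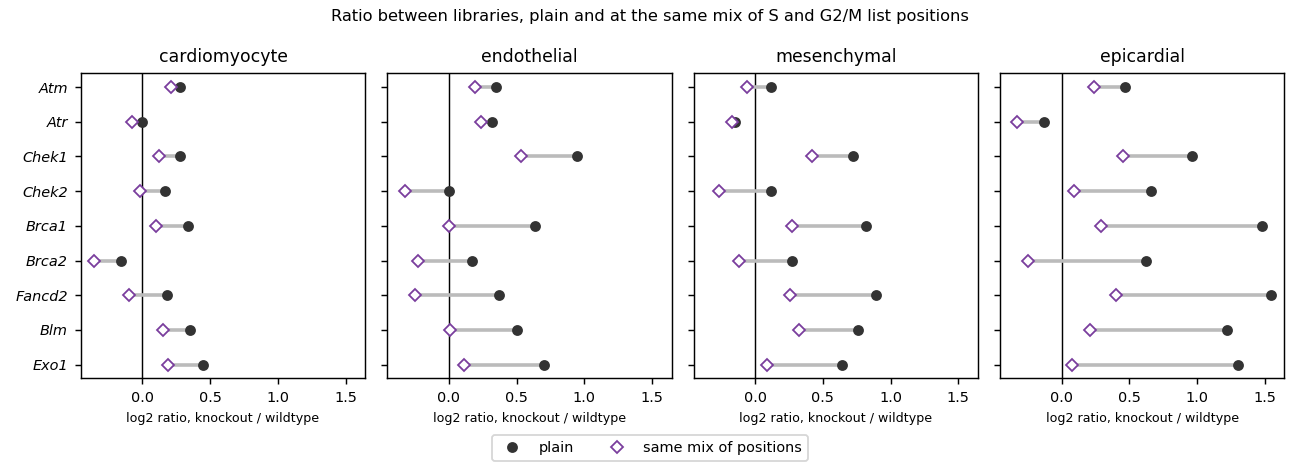
Log2 ratio between the library labelled knockout and the library labelled wildtype (x axis) for each gene in the 4 non-blood classes, as summed over all cells (filled) and with both libraries set to the same mix of cell cycle positions (open diamonds); no error is drawn. Brca1 in epicardial cells moves from 1.48 to 0.29, and Chek1 keeps 0.53 in endothelial cells.

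At the same mix, Chek1 had the highest ratio of the 9 in endothelial cells (0.53), mesenchymal cells (0.42) and epicardial cells (0.45). In cardiomyocytes Atm (0.21), Exo1 (0.19) and Blm (0.15) were above Chek1 (0.12). Its pooled level was higher in the knockout library at each of the 4 positions, with log2 ratios of 0.49 (0.21 to 0.77) in neither, 0.28 (0.02 to 0.54) in S only, 0.20 (0.01 to 0.39) in both and 0.68 (0.43 to 0.94) in G2/M only. Brca1 kept 0.10 in cardiomyocytes, 0.00 in endothelial, 0.27 in mesenchymal and 0.29 in epicardial cells. Its pooled ratio was above 0 in neither (1.66, 1.19 to 2.14) and in G2/M only (0.78, 0.53 to 1.02), but not in cells with both lists (-0.11, -0.25 to 0.04). In S only the pooled level of Brca1 was also higher in the knockout library, as given above. Brca2 was on the lower side in all 4 classes at the same mix (-0.36 in cardiomyocytes, -0.23 in endothelial, -0.12 in mesenchymal and -0.25 in epicardial cells). Its pooled level in cells with both lists was 57.1 CPM in the wildtype and 47.0 CPM in the knockout library (-0.28, -0.44 to -0.12). The pooled values sum 4 classes in unlike shares: epicardial cells were 810 of 4230 wildtype and 1759 of 3497 knockout cells. They therefore hold that difference as well as any within a class. In cardiomyocytes alone, Brca1 in neither was at 3.44 CPM (1.97 to 5.59) in the wildtype and 7.13 CPM (4.81 to 10.2) in the knockout library. These levels rest on 16 and 30 UMIs, and their intervals overlap. Of the 144 ratios of a member within 1 position of 1 non-blood class, 23 had intervals above 0, 8 below and 113 held 0, with a median of 0.14. The same count was not made over all genes, so it is not a result about the members in particular.

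Members were also seen together in cells. Among cells of the 4 non-blood classes thinned to 3000 UMIs, Exo1 had a UMI in 14.1% (9.53 to 19.9) of the 191 wildtype cells with Brca1 and in 2.67% of the 4039 without. In the knockout library the shares were 12.9% (9.72 to 16.6) of 388 and 5.34% of 3109 cells. Blm had a UMI in 19.9% and 7.30% of wildtype cells with and without Brca1, and in 20.9% and 10.4% of knockout cells. Atr had one in 11.0% (6.94 to 16.3) and 9.04% of wildtype cells with and without Brca1, and in 6.96% and 8.36% of knockout cells. These are shares of cells with a captured UMI and not of cells that express the gene. Free RNA was put at 1.10% to 1.57% of the UMIs of a class.

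The other genes of the pathway, from lists chosen with earlier results of these data known, were read the same way. In cardiomyocytes few passed 1.5-fold, beside the 12.3% higher and 10.1% lower of all genes: of 24 checkpoint genes 2 were higher and 1 lower in the knockout library, of 20 recombination genes 1 and 0, of 14 Fanconi genes 1 and 0, of 12 genes of Blm complexes and resolution 0 and 0, of 10 end joining genes 0 and 0, of 7 mismatch repair genes 0 and 0, and of 19 excision repair genes 0 and 0. Palb2, which joins Brca1 to Brca2, had 50 and 105 UMIs (0.81), and Fanca, of the Fanconi core complex, at 9.38 and 14.3 CPM (0.60). Rad9a and Rad9b, clamp subunits of the Atr pathway, were at 3.88 and 6.02 CPM (0.63) and at 2.99 and 4.87 CPM (0.70). Cdc25b, a phosphatase that Chek1 restrains, was at 13.6 and 6.90 CPM (-0.98). Prkdc, the kinase of end joining, was at 26.5 and 38.1 CPM (0.53), and Xpc, which recognises bulky lesions, at 8.49 and 6.76 CPM (-0.33). In epicardial cells, where 14.0% of all genes were higher and 21.0% lower, 11 checkpoint genes were higher and 1 lower, with 8 and 0 of the recombination list, 7 and 0 of the Fanconi list and 6 and 0 of the Blm list. The other repair lists had smaller shares there, with 2 and 0 of 10 end joining genes, 2 and 0 of 7 mismatch repair genes and 4 and 1 of 19 excision repair genes. All 28 S phase genes and 40 of the 44 G2/M genes were higher there too, beside 1 and 0 in cardiomyocytes. Rad54b, a recombination motor protein, was at 15.7 and 11.8 CPM in cardiomyocytes and at 11.8 and 26.6 CPM in epicardial cells.

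The last list holds targets of p53, which lies downstream of Atm and Chek2. In cardiomyocytes 6 of its 19 genes with enough UMIs were higher past 1.5-fold and 0 lower, against the 12.3% and 10.1% of all genes given above. Cdkn1a, the inhibitor of cyclin-dependent kinases, was at 16.3 and 44.2 CPM (1.43, 1.20 to 1.67), and Trp53inp1 at 6.96 and 13.5 CPM (0.95). In the other non-blood classes, 0 of its genes were higher and 2 lower of 17 in endothelial cells. The counts were 1 and 3 of 18 in mesenchymal cells and 4 and 5 of 19 in epicardial cells. Of all genes, 17.1%, 21.4% and 21.0% were lower past 1.5-fold in these classes, in that order. The shares of all genes that were higher in these classes are given above with the members. The log2 ratio of Trp53inp1 there was -0.37, -0.79 and -0.19 in the same order. In cardiomyocytes Plk2 was at 31.6 and 21.2 CPM (-0.58) and Ccng1 at 101 and 75.1 CPM (-0.43), so genes of the list lay on both sides of 0. By position, Cdkn1a was at 15.9 CPM in wildtype and 71.1 CPM in knockout cardiomyocytes with neither list (2.16, 1.79 to 2.55), and at 21.3 and 25.7 CPM in those with both lists (0.27, -0.23 to 0.79). In endothelial cells Cdkn1a was at 11.8 and 8.20 CPM (-0.52, -0.96 to -0.09). In epicardial cells it was at 3.09 and 6.49 CPM (1.07, 0.46 to 1.75), from 24 and 220 UMIs. Its interval held 0 in mesenchymal cells (0.07, -0.39 to 0.52). At the same mix, the ratio of Cdkn1a was 1.48 in cardiomyocytes, -0.34 in endothelial, 0.52 in mesenchymal and 2.08 in epicardial cells. Its higher level was thus not limited to cardiomyocytes.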

How the data were processed

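Droplet libraries were made with a 10x 3′ kit from 4 pooled hearts per genotype. The authors deposited counts of UMIs per gene and barcode for all barcodes, made with Cell Ranger 7.1.0, per the file headers, on build mm10, per the submitters' processing notes. The sources do not say whether intronic reads were counted or how the authors filtered cells. The gene symbols come from the deposited feature table.

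From these counts, barcodes with at least 3000 UMIs, at least 500 genes and at most 20% mitochondrial UMIs were kept. They hold 79400375 UMIs in the wildtype and 110829003 in the knockout library. Cells were gated on marker genes: at least 3 markers of a class with a UMI among 3000 drawn, and 2 more than of any other class. The gate was set after marker counts were seen. UMIs were summed per class and library, scaled to CPM and compared as log2 ratios of knockout over wildtype, with exact binomial intervals for ratios, Poisson intervals for levels and Clopper-Pearson intervals for shares. No test was run, because each genotype has 1 library. A gene was called when past 1.5-fold with at least 20 UMIs. The same-mix ratio weights each library's levels by the average share of UMIs at each cell cycle position. A position without cells in either library was left out of it. Named genes were the 9 members, Bub1b and Cdkn1a, the 10 genes closest in level to the members' sum, and genes from the 2 highest and 2 lowest of each list in cardiomyocytes with at least 100 UMIs. Some of these are not reported here. Hbb-bs, Hba-a1, Hbb-bh1, Hbb-y, Hba-x, Hmga2, Lin28b and Mki67 were added after their values were seen. The members and lists were chosen with earlier results of these data known. Alternatives changed the UMI minimum, mitochondrial limit, depth, scaling, gate, doublets, free RNA, averaging, fold and count minimum. Doublets were kept, and an own version of the Scrublet method gave the alternative without them. The scripts were tested on simulated data. Python 3.11.15, numpy 2.4.6, scipy 1.17.1 and pandas 2.3.3 were used.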

Additional observations from a re-analysis of the deposited data

Results flagged for a closer look

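Chek2 had the only ratio of opposite sign with an interval clear of 0. Its log2 ratio between the library labelled knockout and the library labelled wildtype was -0.68 (-1.28 to -0.12) in macrophages, from 110 and 34 UMIs, against 0.66 (0.36 to 0.96) in epicardial cells and 2.30 (1.77 to 2.88) in erythroid cells. The difference between the classes was not tested, since each class has 1 library per genotype. Only 59 macrophages were found in the knockout library, beside 274 in the wildtype library. Over the 9 alternatives run for it the macrophage ratio of Chek2 lay between -0.83 and -0.62, and it was -1.03 with both libraries at the same mix of cell cycle positions.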

How the results depend on the processing

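No paired analysis was possible because each genotype has 1 library, and for the same reason no replicate could be left out. The summed ratio of the 9 genes kept its direction in all 6 classes under the alternatives run. In cardiomyocytes (0.20) it was 0.32 with a limit of 10% mitochondrial UMIs, 0.10 relative to the median gene, 0.12 without the highest doublet scores and 0.45 in cells with under 3 Myl2 UMIs (added after seeing the data). In macrophages (0.53) it was 0.97 when cells were thinned to 3000 UMIs. In erythroid cells (2.73) it was 1.26 relative to the median gene, 1.66 with hemoglobin, mitochondrial and ribosomal genes left out of the total and 1.83 under the stricter gate. At 2-fold, the genes counted as higher were 0 in endothelial cells, 0 in mesenchymal cells, 4 in epicardial cells and 2 in macrophages, and 0 were lower in macrophages. The share of all genes past 2-fold was not computed, so these counts have no background beside them. Of 504 single-gene ratios under alternatives, 458 stayed inside the counting interval of the value reported, 43 moved out of it and 3 turned: Blm (-0.10) and Atm (-0.03) in thinned cardiomyocytes, and Atm in erythroid cells relative to the median gene (-0.27). The causes were not tested. The same-mix ratios of the sum stayed between 0.02 and 0.16 in the 4 non-blood classes with an S list minimum of 7 or a G2/M list minimum of 15. The lowest counts behind a ratio are those of wildtype erythroid cells, with 4 UMIs of Exo1 and 5 of Fancd2.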

Other observations

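Cells outside the 6 classes also carried the 9 genes. In cells of no class the sum was 112 CPM in the wildtype library, where hemoglobin took 50.1% of the UMIs of the median cell, and 315 CPM in the knockout library, where it took 0.115%. The knockout library held 57 cells gated as hepatic by 6 liver markers, with a summed level of 378 CPM (348 to 410), and the wildtype library 0. Megakaryocyte-gated cells numbered 77 in the knockout library, at 288 CPM (258 to 320), and 9 in the wildtype library, at 131 CPM (52.7 to 270).

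The share of cells with a UMI of at least 5 of the 9 genes, at full depth, was 14.4% of wildtype and 24.7% of knockout cardiomyocytes, and 5.80% and 36.5% of epicardial cells. Those shares compare unlike depths: the median cardiomyocyte had 13051 and 18645 UMIs, and the median epicardial cell 8679 and 17377. At 3000 UMIs per cell, a UMI of any of the 9 was found in 32.3% and 36.9% of cardiomyocytes and in 35.4% and 55.4% of epicardial cells. At that depth 2 or more of the 9 had a UMI in 10.8% and 9.52% of cardiomyocytes and in 7.78% and 21.6% of epicardial cells.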
